A study of Cannabis sativa with 6 samples.

Results

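The genes described here are nuclear genes of *Cannabis sativa* leaves that had 0 counts in each of 3 control libraries and at least 1 CPM, that is 1 read in 1000000 gene counts, in each of 3 heat libraries. They number 118, out of 33673 rows named by a nuclear locus number and 34253 rows that name a gene. The genes were thus chosen by their measured counts in all 6 libraries, and the difference between the groups is given as a description, without a test. The plants, of the cultivar Pink Pepper, had germinated for 15 days at 25 °C and then grown in pots for 3 weeks. The heat group was then held at 45 ± 2 °C for 7 days and the control group at 23 ± 1 °C, both at a relative humidity of 40 ± 4%. Whether libraries of the same group are separate plants is not in the labels, so any spread or p-value covers these libraries only and may be technical.

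In plants, heat shock transcription factors bind heat shock elements in promoters, and many of their target genes are barely transcribed in an unstressed leaf. Small heat shock proteins, which hold unfolding proteins in solution, are a known example of such targets. Long non-coding RNAs (lncRNAs) are transcripts without a long reading frame, and small nucleolar RNAs (snoRNAs) guide the modification of ribosomal RNA. The gene table used here gives a locus number, an RNA class, a chromosome and a gene order for each member, but no product name. No function is therefore assigned to any member, and the labelled tissue was not checked against leaf markers.

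The control libraries held 30766680 to 36584253 gene counts and the heat libraries 28492832 to 30012772. The control group was thus the deeper one, with 100394016 counts against 87359540. A gene at 0 over the control group may still stand at up to 0.0299 CPM, the level of 3 counts over that group, and this limit covers counting error only. In bulk leaf tissue, fewer cells of a type and less RNA per cell cannot be told apart. Reads that fell in no annotated feature were 1.79% ± 0.0634 of a control library and 6.05% ± 0.108 of a heat library (SD, n = 3), and their part in the low counts of members was not tested.

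By RNA class, 100 members are protein-coding genes, 17 are lncRNA genes and 1 is a snoRNA gene. Most genes that were at 0 in control stayed at 0 in heat. Of 12990 such nuclear genes, 10586 (81.5%) had no count in any heat library, 1818 had 1 to 9 counts over the 3 heat libraries and 586 had 10 or more. The members were 0.908% of the 12990. Taken over all chromosomes, the share was 1.07% of 9303 protein-coding genes and 1.09% of 1559 lncRNA genes. For lncRNA genes it differed between chromosomes, as described below. It was lower for snoRNA genes, of which 1 of 1717 was a member, and 0 of 325 rRNA genes at 0 in control qualified. Of these, 96.6% of the snoRNA and 98.5% of the rRNA genes had no count in heat either. For protein-coding and lncRNA genes this was 78.7% and 78.9%. The libraries were made with an mRNA kit, and how well it detects the other classes was not tested. The reverse rule, 0 counts in heat and at least 1 CPM in each control library, took 147 nuclear genes, of which 142 were protein-coding and 5 were lncRNA genes. In the fit over all genes, all 118 members were tested, since their heat counts alone took them past the filter on low counts, and all 118 were called higher in heat by edgeR, where 44.3% of the 17727 tested genes were. The rule used that contrast, so nothing is read from this count.

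**Figure D1:**
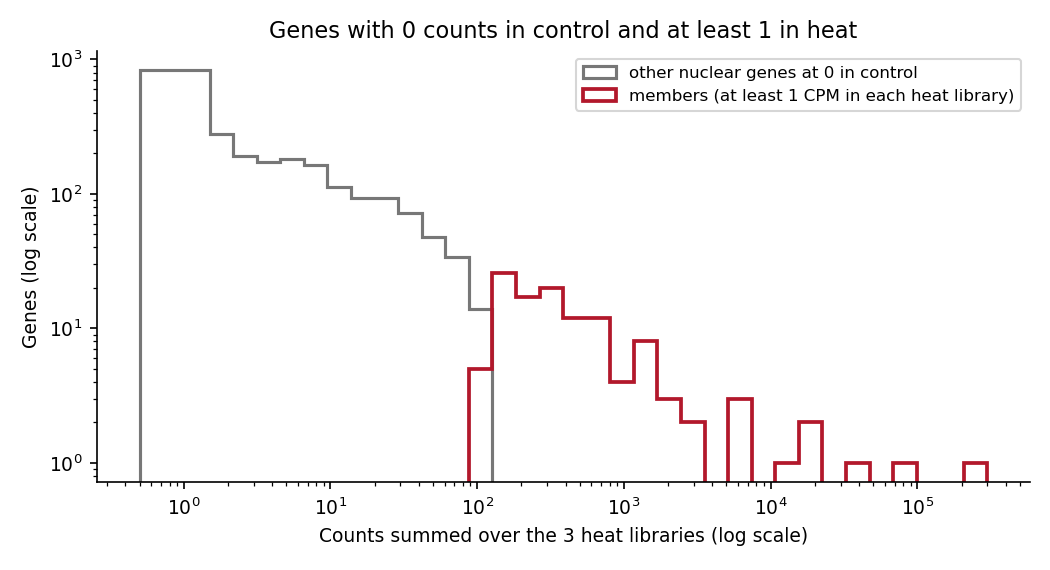
Number of nuclear genes (log scale) by counts summed over the 3 heat libraries (log scale), for genes at 0 throughout the control group and with at least 1 count in heat. The grey line shows the genes that missed the rule and the red line the 118 members, which reach from about the level of the threshold to a single gene far to the right.

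The members spanned a wide range of read numbers. Their mean over the heat libraries ran from 1.32 to 3212 CPM, with a median of 3.90 CPM. Of the 118, 89 had a mean of at least 2 CPM, 48 of at least 5, 26 of at least 10, 9 of at least 50 and 6 of at least 100. The smallest count of any member in a heat library was 29. CPM are not divided by transcript length, so this order is one of reads and not of transcript molecules. Together the members took 5870, 6105 and 6050 of each 1000000 gene counts in heat replicates 1, 2 and 3. The mean was 6008 ± 123 (SD, n = 3). The 3 most counted members held 75.5% of these counts and the 9 most counted held 89.3%, while the 92 members under 10 CPM held 5.44%.

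The most counted member was LOC115712088, a protein-coding gene of chromosome 4, with 93433, 94310 and 92762 counts in heat. It stood at 3212 ± 86.3 CPM (SD, n = 3), ranked 17 among all genes in heat by reads, and alone held 53.5% of the member counts. LOC115712164, the gene directly before it in the gene order, had 23365, 23825 and 22184 counts, 794 ± 27.2 CPM. Against the floor of 3 counts over the control group these levels were at least 107453-fold and at least 26575-fold higher in heat. Without LOC115712088 the other 117 members took 2796 ± 39.6 of each 1000000 gene counts, with 2757, 2836 and 2794 in the 3 libraries.

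The next member by reads, LOC133028957, lies on sequence that the assembly does not place on a chromosome. Its heat counts were 15991, 15007 and 15255, 529 ± 8.19 CPM, and its heat level was at least 17718-fold higher than the control floor. LOC115707820, a protein-coding gene of chromosome 1, had 7109, 7594 and 6872 counts, 247 ± 14.1 CPM. Chromosome X carries both of the next members by reads. LOC115702500 had 5879, 5857 and 6012 counts, 203 ± 7.56 CPM. LOC133032481 had 4484, 4498 and 3935 counts, 148 ± 9.0 CPM. For these 4 genes the SD over the heat libraries was between 1.55% and 6.09% of the mean. Each control library was at 0 by the rule.

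Below 100 CPM came 3 more protein-coding members before a gap in the order. LOC115701358, on unplaced sequence, had 2421, 2403 and 2454 counts (83.4 ± 2.73 CPM). LOC115697505 of chromosome 7 had 2275, 2208 and 2403 counts (78.9 ± 4.73 CPM). LOC115702178 of chromosome 1 had 1992, 2076 and 1975 counts (69.2 ± 2.79 CPM). The next member, an lncRNA gene described below, stood at 34.6 CPM. No member had a mean between those values.

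The other protein-coding members with a heat mean of at least 10 CPM number 13 and come from 8 chromosomes. On chromosome 1, LOC115704849 stood at 32.9 ± 0.659 CPM and LOC133033588 at 22.5 ± 1.96 CPM. On chromosome 2, LOC133034079 stood at 16.5 ± 2.26 CPM and LOC115720278 at 11.03 ± 0.825 CPM. LOC133034079 overlaps the protein-coding gene LOC115720951, so reads can be ambiguous between the pair. On chromosome 4, LOC115714599 stood at 17.5 ± 1.64 CPM and LOC115713884 at 16.7 ± 1.54 CPM. On chromosome 8, LOC115701125 stood at 24.0 ± 1.22 CPM and LOC133030579 at 12.8 ± 0.967 CPM. On chromosome 9, LOC133031207 stood at 15.4 ± 1.10 CPM and LOC133030743 at 11.4 ± 0.813 CPM. The remaining 3 are LOC115710331 of chromosome 3 at 18.6 ± 1.95 CPM, LOC133039129 of chromosome 6 at 18.0 ± 1.40 CPM and LOC115696947 of chromosome 7 at 19.5 ± 2.07 CPM (all SD, n = 3). Neighbours in this order often differed by less than their spread, as did LOC115714599 and LOC115713884. Every one of the 13 was at 0 in all 3 control libraries, and the lowest heat count among them was 296, in LOC115720278.

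**Figure D2:**
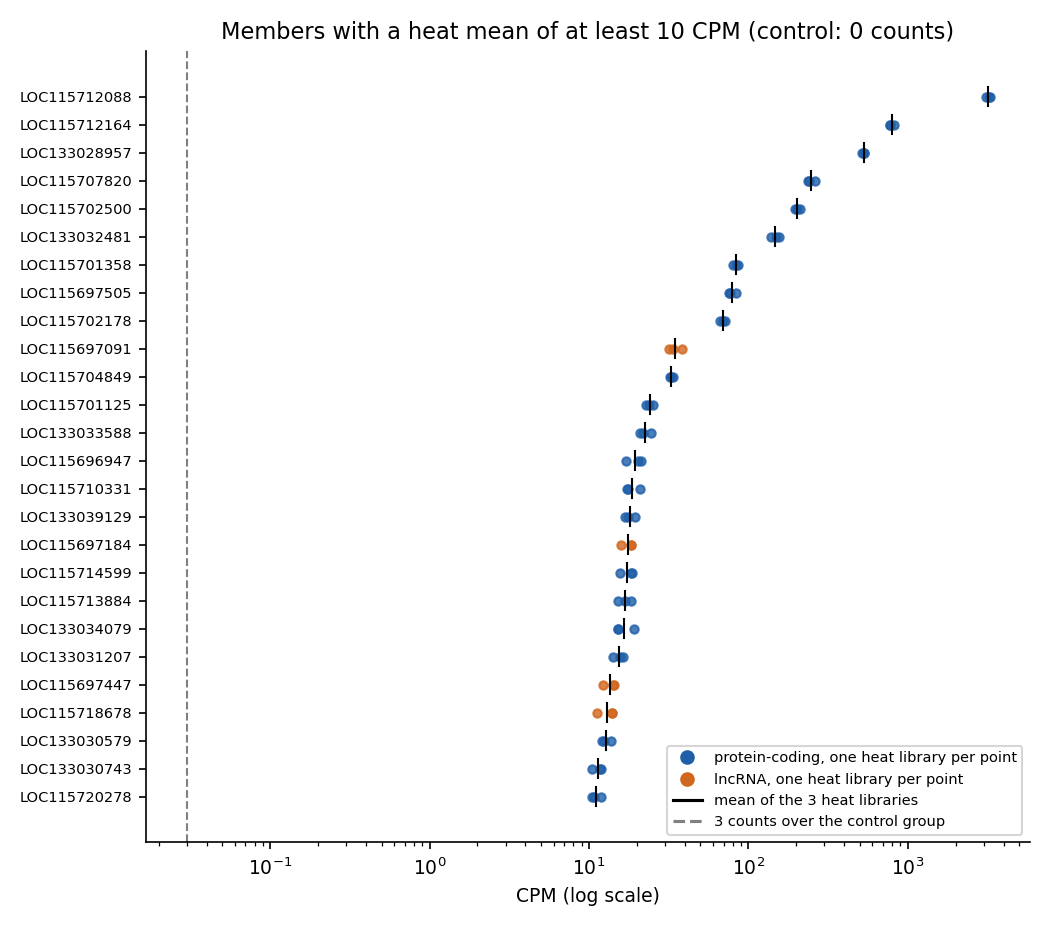
CPM (log scale) of the 26 members with a heat mean of at least 10 CPM. Each point is 1 heat library, blue for protein-coding and orange for lncRNA genes, the black bar is the mean of 3 libraries, and the dashed line at 0.0299 CPM is 3 counts over the control group, where every gene shown had 0 counts. The points of a gene lie close together compared with the distance to the dashed line.

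The lncRNA members were concentrated on chromosome 7. Of the 17, 11 lie there (64.7%), while chromosome 7 holds 195 of the 2623 annotated nuclear lncRNA genes (7.43%). As a share of the lncRNA genes at 0 in control, members were 11 of 144 on chromosome 7 (7.64%) and 6 of 1415 elsewhere (0.424%). No other chromosome had more than 1 lncRNA member. Among protein-coding genes the shares were closer: 9 of 701 protein-coding genes at 0 in control were members on chromosome 7 (1.28%) and 91 of 8602 elsewhere (1.06%). The pattern was noticed after the values were seen, and the difference was not tested.

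**Figure D3:**
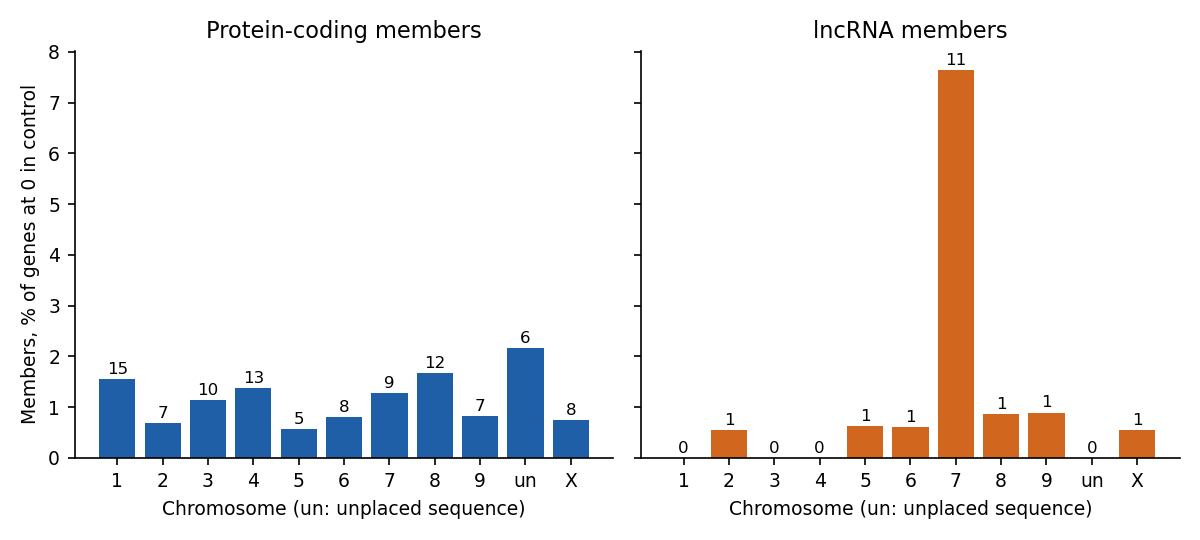
Members as a percentage of the genes of the same class that were at 0 in control, by chromosome, for protein-coding genes (left) and lncRNA genes (right). The number above each bar is the number of members, and chromosome 7 stands out for lncRNA genes, with 11 of 144.

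Of the 11 lncRNA members of chromosome 7, LOC115697091 had the most reads, with 960, 973 and 1089 counts in heat, 34.6 ± 3.22 CPM (SD, n = 3). LOC115697184 had 550, 459 and 522 counts, 17.5 ± 1.39 CPM. LOC115697447 had 423, 356 and 411 counts, 13.6 ± 1.12 CPM. These 3 are at least 1158-fold, 586-fold and 456-fold higher than the control floor. LOC115698210 (277, 244 and 231 counts) and LOC133029260 (232, 222 and 197 counts) followed, at 8.60 ± 0.574 and 7.45 ± 0.461 CPM. LOC133029183 stood at 4.18 ± 1.22 CPM and LOC133039886 at 4.11 ± 0.763 CPM, 2 genes that differed by less than their spread. LOC115696855, LOC133029114, LOC115698035 and LOC133029272 were between 1.68 and 2.17 CPM. Summed, the 11 took 95.4, 94.2 and 104 CPM in heat replicates 1, 2 and 3.

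None of these 11 genes stood directly beside another in the gene order, and whether their spacing is uneven was not tested. Along the 2529 counted genes of chromosome 7, between 7 and 880 other genes separated one from the next, with a median of 79.5. None lies directly next to an annotated rRNA gene, and 1 of the 11, LOC115697447, overlaps another gene, the protein-coding LOC115697446. That gene fell, from 23.4 to 5.10 CPM (edgeR log2 fold change -2.14, adjusted p = 3.12e-18), so the overlapping pair moved in opposite directions. Of the 22 genes directly beside the 11, 12 were tested, 6 rose and 6 fell. The use of strand in counting is not given in the sources used here, so reads of an lncRNA and of a gene on the opposite strand cannot be told apart.

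Among tested lncRNA genes that are not members, more rose than fell, on chromosome 7 and elsewhere. Of 23 such genes on chromosome 7, 14 rose and 5 fell, against 277 and 181 of 538 on the other chromosomes (edgeR adjusted p under 0.05). A gene at or near 0 in control enters that count only through its heat reads. Among those with at least 10 counts in each control library, 5 of 13 on chromosome 7 rose and 5 fell, and 176 and 181 of 426 did elsewhere. Whether these shares differ was not tested.

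The 6 lncRNA members elsewhere lie on 6 chromosomes and ranged from 1.32 to 13.1 CPM. LOC115718678 of chromosome 2 had 417, 405 and 322 counts, 13.1 ± 1.54 CPM. LOC133030838 of chromosome 9 stood at 3.03 ± 0.674 CPM and LOC115716019 of chromosome 5 at 2.42 ± 0.486 CPM. LOC133030048 of chromosome 8 stood at 1.51 ± 0.179 CPM. The last 2, LOC133032439 of chromosome X (34, 33 and 48 counts) and LOC133038670 of chromosome 6 (36, 39 and 40 counts), both at 1.32 CPM, had the lowest means of all members together with the protein-coding LOC115717429, on unplaced sequence, with 52, 34 and 30 counts.

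The single snoRNA member, LOC115724326 of chromosome 9, had 59, 37 and 41 counts in heat, 1.56 ± 0.358 CPM. Both genes beside it in the gene order are snoRNA genes with near-zero control counts. LOC115724327 had 2 counts in control and 278 in heat, which per library size is a 160-fold ratio (exact 95% counting interval 43.8 to 1326). LOC115724330 had 1 and 122 counts, a ratio of 140 with an interval of 24.7 to 5583. The 3 neighbours therefore showed the same pattern, and 1 of them met the rule.

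Members stood next to each other in the gene order in 2 places, both on chromosome 4. The first is the pair LOC115712164 and LOC115712088, the 2 members with the most reads. The protein-coding gene on one side of the pair, LOC115714270, had 535, 664 and 723 counts in control and 413, 436 and 471 in heat, and its log2 fold change was -0.27, with an SE of 0.09 and an edgeR adjusted p of 0.00567. The one on the other side, LOC115714630, stood at 21.3 ± 0.583 CPM in control and 22.0 ± 1.17 CPM in heat, and did not pass the test (log2 fold change 0.10 ± 0.07, edgeR adjusted p = 0.183). Just past it lie 2 more protein-coding genes that nearly met the rule. LOC133037257 had 0, 0 and 1 counts in control and 1062, 1200 and 1134 in heat, a ratio of 3903 per library size with an exact 95% counting interval of 700.0 to 154193. LOC133037258 had 0, 0 and 2 counts in control and 3046, 3316 and 3288 in heat, a ratio of 5545 with an interval of 1535 to 45793. The stretch thus held 4 genes at or near 0 in control and between 38.9 and 3212 CPM in heat, with LOC115714630 among them.

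**Figure D4:**
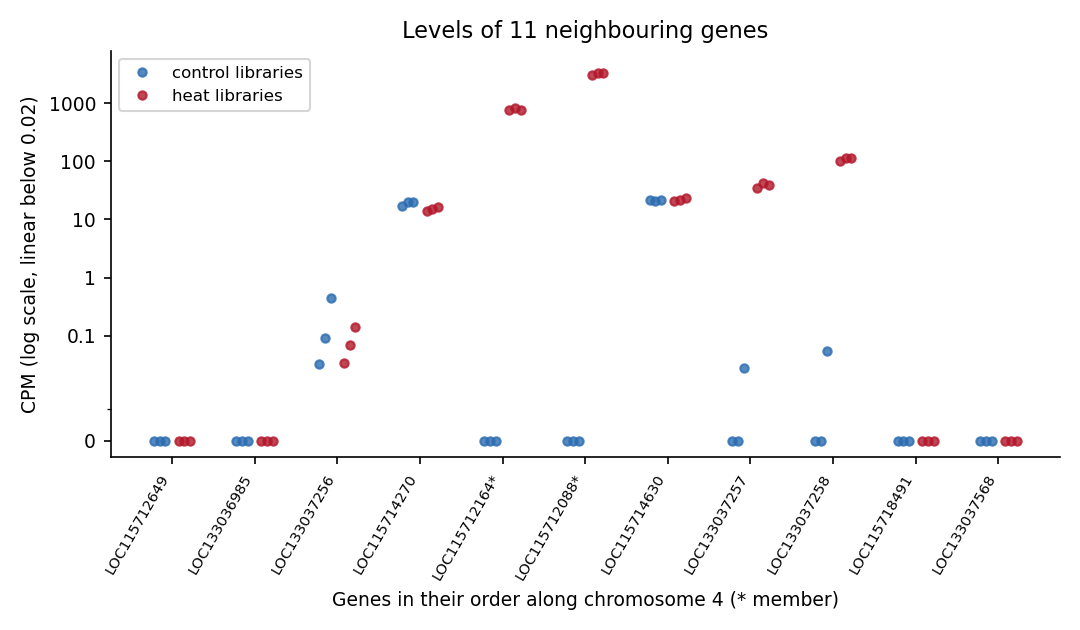
CPM of 11 neighbouring genes in their order along chromosome 4 (vertical axis logarithmic, linear below 0.02), with 3 control libraries in blue and 3 heat libraries in red per gene. The members LOC115712164 and LOC115712088 and, past LOC115714630, the genes LOC133037257 and LOC133037258 are at or near 0 in control and at 38.9 to 3212 CPM in heat, while LOC115714270 and LOC115714630 differ little between the groups.

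The second place is a run of 3 protein-coding members, LOC115713884, LOC133037428 and LOC115713886. Their heat counts were 504, 438 and 520 for the first, 93, 57 and 53 for the second and 68, 50 and 68 for the third. The first gene had the most reads in every heat library, with a mean of 16.7 CPM against 2.31 and 2.13 CPM. The genes on either side of the run, both snoRNA genes, had at most 1 count over all 6 libraries. One of them, LOC115715485, overlaps LOC115713886.

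The genes flanking the members, those described above included, were mixed. The 112 members placed on a chromosome had 215 nuclear genes directly beside them that are not members, of which 40 had no count in any library. Of 132 tested, 68 rose (51.5%) and 45 fell (34.1%), where 44.3% of all tested genes rose and 46.4% fell (edgeR adjusted p under 0.05). Among the 112 of them with at least 10 counts in each control library, 51 rose (45.5%) and 45 fell. Over all 16437 such genes, 6693 rose (40.7%) and 8214 fell. Of 100 such genes lying 2 places from a member, 52 rose (52.0%) and 42 fell. At least 1 CPM in each heat library with 1 to 3 counts over the control group was seen for 7 of the 215 (3.26%) and for 108 of all nuclear rows (0.321%). These differences in share were not tested. With the snoRNA pair above, the 7 include LOC115704932 beside LOC133033588 on chromosome 1, with 3 control and 31149 heat counts, 356 ± 7.08 CPM in heat. This was a ratio of 11932 per library size, with an exact 95% counting interval of 4083 to 57864. The protein-coding genes LOC115697061, LOC115719107, LOC115725169 and LOC133030160 make up the rest, at 2.201 to 3.42 CPM in heat. LOC115719107 overlaps its member neighbour LOC115719109.

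Among the neighbours of abundant members, LOC115697506 beside LOC115697505 rose from 16.3 to 99.3 CPM (log2 fold change 2.67, edgeR adjusted p = 3.07e-28). LOC115710575 beside LOC133032481 rose from 25.2 to 173 CPM (log2 fold change 2.84, edgeR adjusted p = 3.65e-31). In the other direction, LOC115698314 beside the lncRNA member LOC115697091 fell from 37.6 to 10.4 CPM (log2 fold change -1.79, edgeR adjusted p = 5.24e-20). Genes beside members thus moved both ways, and these 3 were chosen after their values were seen.

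Overlap with another annotated gene was counted for the members only, so no share over all genes stands beside it. Of 112 placed members, 103 overlap no other gene in the table and 9 do. A locus number beginning with 133 was carried by 31 of 118 members (26.3%) and by 1159 of 14062 other nuclear genes with at least 1 CPM in each heat library (8.24%). Over all 33673 nuclear rows it was carried by 10426 (31.0%), a share above that of the members. Among all nuclear genes at 0 in control the share was 58.0%. These shares are descriptions.

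The spread among the heat libraries differed between members and was wider at low levels. The highest heat value was at most 1.5 times the lowest for 88 of 118 members, and over 2 times for 3. The SD was a median of 12.5% of the mean, from 0.866% to 51.0%. Over 14062 other nuclear genes with at least 1 CPM in each heat library the median was 5.73%. At a mean of 1 to 2 CPM the median was 20.7% for 29 members and 17.9% for 759 other nuclear genes. At 2 to 5 CPM it was 17.3% for 41 members and 14.1% for 1983 other genes. At 5 to 10 CPM it was 8.50% for 22 members and 9.86% for 1998 other genes. At 10 to 100 CPM it was 7.88% for 20 members and 4.86% for 7173 others. At 100 CPM and above it was 3.57% for 6 members and 2.59% for 2149 others. The median was higher for the members in each of these ranges except 5 to 10 CPM, and this difference was not tested. The widest spread was that of LOC115707729, a protein-coding gene of chromosome 1 with 75, 35 and 29 counts, which was singled out after its values were seen. It overlaps the protein-coding gene LOC115707730. Heat replicate 3 was the highest of the 3 for 52 members, and replicates 1 and 2 for 33 each.

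**Figure D5:**
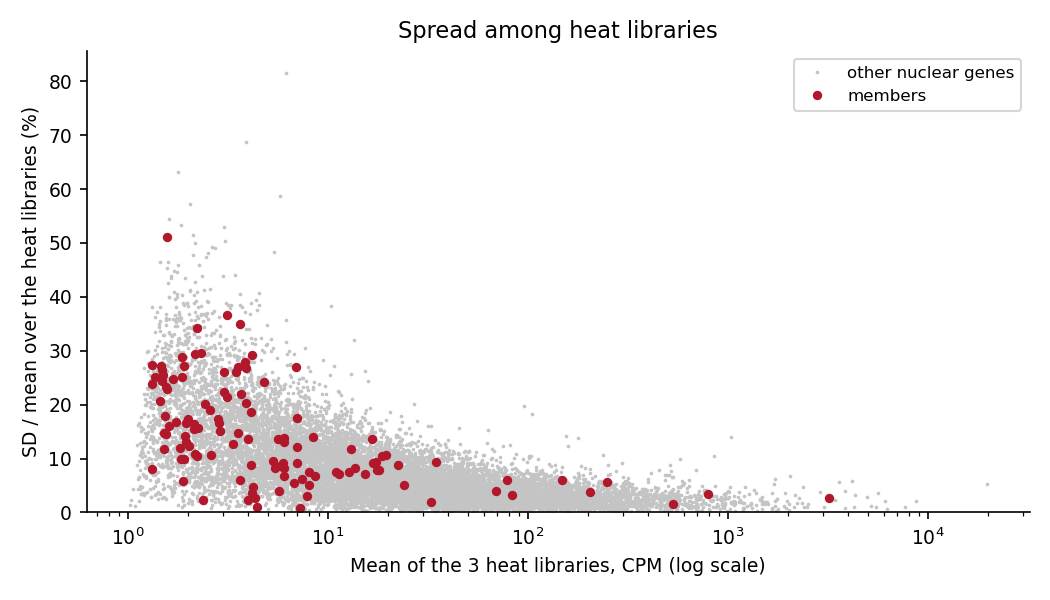
SD as a percentage of the mean over the 3 heat libraries against the mean in CPM (log scale), for 118 members (red) and 14062 other nuclear genes with at least 1 CPM in each heat library (grey). The spread falls as the mean rises, and members lie within the cloud of other genes, with medians of 7.88% against 4.86% at 10 to 100 CPM.

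The rule was also applied to 5 libraries at a time, and the library left out was then read. Genes that meet the rule there too are the 118 members by definition, so that number is fixed and is no check. Only the number taken and the levels in the library left out can vary. Without control replicate 1 the rule took 129 genes, of which 118 (91.5%) had 0 counts in that library and none had more than 3. Without control replicate 2 it took 142, of which 118 (83.1%) were at 0 there and none had more than 8. Without control replicate 3 it took 148, of which 118 (79.7%) were at 0 there and none had more than 7. Without heat replicates 1, 2 and 3 in turn it took 121, 124 and 121 genes, and 118 of each had at least 1 CPM in the library left out. The lowest level in the heat library left out was 0.300 CPM (9 counts) for replicate 1, 0.381 CPM (11 counts) for replicate 2 and 0.842 CPM (24 counts) for replicate 3. The number at exactly 0 depends on how many control libraries are read.

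The edges of the rule lay among similar genes. Just inside the heat threshold, LOC115707729 had 1.02 CPM in its lowest heat library, LOC115717429 had 1.05 and LOC115716905 had 1.09. Just outside, the lncRNA gene LOC133037646 of chromosome 5 had 64, 28 and 32 counts, with 0.970 CPM in its lowest library. The lncRNA gene LOC115697712 of chromosome 7, the snoRNA gene LOC115708489 and the protein-coding gene LOC133031028 each had 0.901 CPM there. At the control edge, 46 nuclear genes had 1 count over the control group and at least 1 CPM in each heat library, 38 had 2 and 24 had 3. The 3 of these with 1 control count and the most heat reads are abundant genes. The lncRNA gene LOC133038946 of chromosome 6 had 12110, 11301 and 10891 counts in heat, 392 ± 10.7 CPM, a level that among the members 3 protein-coding genes exceeded. LOC115725196 of chromosome 6 stood at 112 ± 3.87 CPM and LOC115712417 of chromosome 4 at 49.8 ± 4.34 CPM. Their ratios per library size were 39420 (exact 95% counting interval 7075 to 1557050), 11250 (2019 to 444379) and 4996 (896 to 197360).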

How the data were processed

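Leaf mRNA of 3 control and 3 heat samples was sequenced; the labels name the RNeasy Micro kit for extraction and a TruSeq standard mRNA kit for the libraries. The submitters' processing notes name Trimmomatic 0.39, HISAT2 2.2.1, HTSeq 2.0.5 and DESeq2; roles, settings, genome build and strand use are not given in the sources used here. The authors deposited raw counts per gene and, in separate files, a normalized signal that equals the counts times 1 factor per library: 100.0% of values divided by it were whole within 0.01, and all 34253 rows returned the counts. Counts were used. The 5 closing rows that name no gene were left out of totals and tests; the gene rows held 84.0% to 89.0% of a library's listed reads.

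RNA class, chromosome and gene order came from a RefSeq table of ASM2916894v1 (Pink pepper), which matched all 33673 locus rows; its 35194 genes less 941 pseudogenes equal the 34253 rows. Its assembly is not named in the files, so no coordinates are given. It has no product names or sequences, so 26 product lists, 11 promoter motifs and protein relatives were not used.

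CPM are counts per 1000000 gene counts of a library, without a scaling factor. All genes were fitted in R 4.3.3 with edgeR 4.0.16 (filterByExpr, TMM, robust quasi-likelihood test, two-sided, Benjamini-Hochberg, threshold 0.05, no covariate). The count test ran on 17727 genes. The code was run on simulated counts in which few genes changed, all upward, while 90.7% of the genes tested here were called, in both directions. That run therefore does not cover the shares that rose or fell. SE is the log2 fold change divided by the square root of F. Bounds use 3 counts over the control group; the exact 95% intervals cover, as the floor does, only counting error. Named genes are members of at least 10 CPM, the 3 lowest, members next to each other and the nearest misses; others are said to be chosen after their values, or are neighbours and lncRNA or snoRNA members described as groups. The members and all lists were chosen with earlier results of these data known.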

Additional observations from a re-analysis of the deposited data

Results flagged for a closer look

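Outside the gene counts, 3 kinds of reads stood above the control level in every heat library. Reads in no annotated feature were 6.05% ± 0.108 of a heat library and 1.79% ± 0.0634 of a control library (SD, n = 3). Unaligned reads were 3.09% ± 0.0929 in heat and 2.43% ± 0.148 in control. Reads with several alignments were 5.07% ± 0.0735 in heat and 4.22% ± 0.0442 in control. Ambiguous reads, which fall in more than 1 gene, went the other way, at 1.73% to 1.77% in heat and 2.72% to 2.73% in control. Among rows not named by a nuclear locus number, 2 met the rule of the members, both copies of a tryptophan tRNA gene: TRNAW-CCA_9 with 88, 53 and 95 heat counts and TRNAW-CCA_12 with 31, 42 and 55. Copies of a tRNA gene can share reads, so single copies are uncertain.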

How the results depend on the processing

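The number of members followed the thresholds: 118 became 78 at 2 CPM and 201 with at most 1 count in each control library, and 111 to 158 under the other settings, leaving out each library in turn included. With TMM library sizes the same 118 were taken. The lncRNA members of chromosome 7 were 7 of 9 lncRNA members at 2 CPM and 11 to 14 under the other settings, 56.0% to 77.8% of the lncRNA members throughout; this count was added after the data were examined. The share of the members was 5050 per 1000000 of all listed reads, closing rows included, by construction lower than the 6008 of gene counts. Neighbours that rose numbered 64 to 80 and those that fell 41 to 47 over RLE scaling, DESeq2 1.42.0, no count filter, the replicate block, each library left out and neighbours 2 places away. These counts do not share a denominator. The lowest number that rose, 64, was out of 114 tested genes 2 places away (56.1%). Directly beside the members 68 of 132 rose (51.5%). Deviations of same-numbered libraries from their group means had correlations of -0.0145, 0.0103 and -0.00536. With 3 libraries per group, these values cannot show whether the numbers pair the libraries. With the replicate block 67 neighbours rose and 42 fell, and 7758 genes rose and 8113 fell over all genes. Protein relatives, groups of similar members and promoter motifs were not run, since no sequences were used here. At this depth a gene at 0 in control cannot be told from one below 0.0299 CPM.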
